A study of Danio rerio with 12 samples.

Results

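Hox cluster genes encode homeodomain transcription factors that give cells of the hindbrain, pharyngeal arches, spinal cord, somites, fins and tail their position along the body axis. They lie in clusters, and the paralog number of a gene gives its place in its cluster. Genes with low numbers lie at the 3′ end, are generally activated earlier and act further forward, and genes with high numbers act further back, in the trunk and tail. Zebrafish carry duplicated clusters, here named by cluster letter and copy, so that hoxb1a and hoxb1b descend from 1 ancestral gene.

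A probe was counted as a Hox probe when the RefSeq accession in the array's annotation matched, without its version, a symbol of the hoxa, hoxb, hoxc or hoxd series. This gave 113 of the 43603 probes and 46 of the 12858 genes with a symbol. The symbol table, built on the GRCz12tu assembly, lists 49 protein-coding Hox genes, and hoxa5a, hoxc10a and hoxc11b had no matched probe. In all, 110 probes of 45 genes from 7 clusters were tested, which required a signal well above background on all 3 arrays of at least 1 group. The probe of hoxa11a was too dim for this, and 1 probe each of hoxb13a and hoxa1a had a missing value. A gene is given by its brightest tested probe. Of the 46 genes, 38 had several probes, with at most 5.

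The arrays held RNA of whole AB wild-type zebrafish embryos. Embryos of 24 hours post fertilisation (hpf) were forming their organs, and those of 72 hpf are usually at hatching. At each age they spent 3 h in 25 µM beclomethasone, a synthetic glucocorticoid, or in the solvent alone, 0.1% DMSO. This makes 4 groups of 3 arrays, and no group carried a mutation or a transgene. Whether the replicates came from separate clutches is not stated, so p-values measure only the spread between these samples.

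Of 43803 spots that were not controls, 16764 stood well above background on 24 hpf DMSO replicate 3, and 31210 to 37401 on the other 11 arrays. That array had a raised floor, its dimmest spot reading 42.8 scanner units, while the dimmest spots elsewhere read 2.36 to 3.89. There, 65 of the 110 tested Hox probes were well above background, against 109 or 110 on every other array. At their brightest probe 33 of the 45 genes were well above background on all 12 arrays, and the other 12 on all but this one. The treatment labels were checked by known glucocorticoid receptor targets. The stress gene ddit4 rose in beclomethasone by 2.25 (log2) at 24 hpf and 4.05 at 72 hpf, and hsd11b2, fkbp5 and klf9 also passed at both stages. The columns of the authors' log2 table carry the opposite treatment labels, so that all directions below follow the scanner files' labels.

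The first comparison asks how Hox transcripts change between 24 and 72 hpf, once in DMSO and once in beclomethasone, on arrays that the 2 comparisons do not share. Most Hox transcripts were lower at 72 hpf. In DMSO 29 of the 45 genes fell, 2 rose and 14 did not pass (limma, Benjamini-Hochberg adjusted p below 0.05 over 36056 probes). Among all 11940 named genes tested, 38.4% fell and 34.1% rose. In beclomethasone 31 genes fell, 1 rose and 13 did not pass, where 37.5% of all named genes fell and 35.7% rose. The median log2 fold change of the Hox genes was -0.60 in DMSO and -0.74 in beclomethasone, against -0.05 and 0.01 over all named genes. Of the 45 genes, 38 had the same sign in both comparisons, as did 87.7% of all named genes. In both, 28 fell and hoxb5a rose, and 0 passed in opposite directions. In bulk embryos fewer cells of a type and less RNA per cell cannot be told apart.

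**Figure D1:**
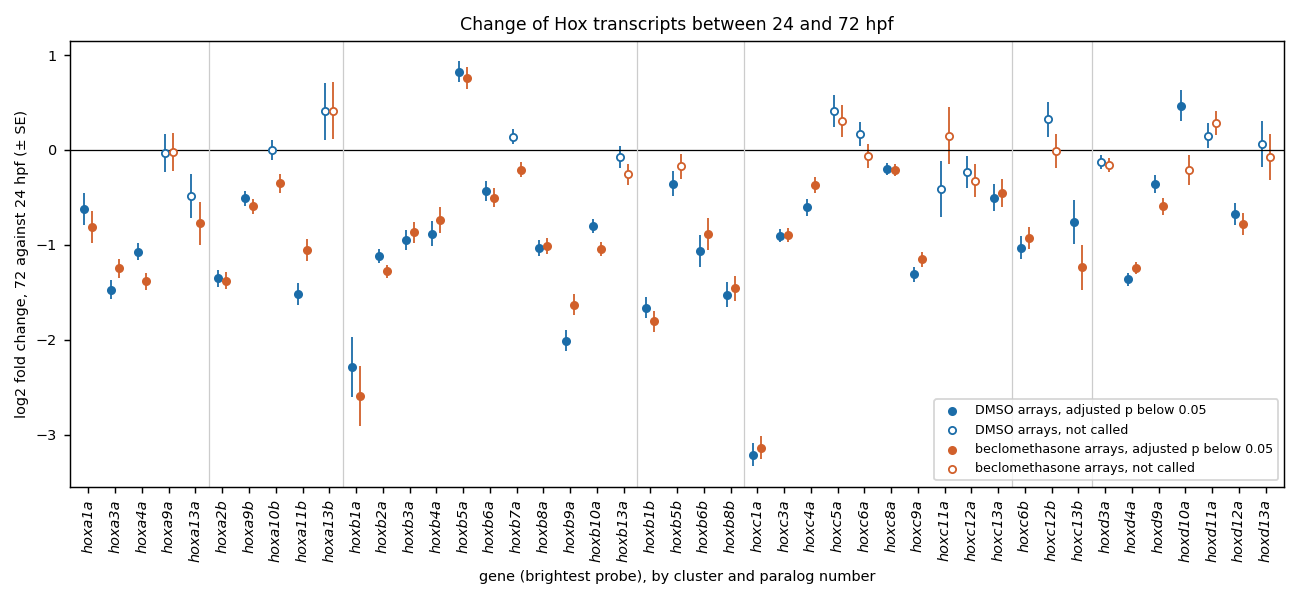
Log2 fold change between 72 and 24 hpf with its standard error for the brightest probe of 45 Hox genes, ordered by cluster and paralog number, in DMSO (blue) and beclomethasone (orange) with 3 arrays per group. Filled points passed the threshold, and hoxc1a at -3.21 and -3.14 lies lowest while hoxb5a at 0.82 and 0.76 lies highest.

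The region at the 3′ ends of the clusters had the largest median fall. Of the 14 genes of paralog groups 1 to 4, 13 fell in both comparisons, with medians of -1.10 and -1.25, and only hoxd3a did not pass. Of the 11 genes of groups 5 to 8, 7 fell and 1 rose in each, with medians of -0.36 and -0.21. The single groups did not follow a smooth order. All 3 genes of group 8 fell in both, with medians of -1.03 and -1.01. Group 1 had medians of -1.97 and -2.20, and group 4 of -0.98 and -0.99. Of the 20 genes of groups 9 to 13, 9 fell and 1 rose in DMSO and 11 fell and 0 rose in beclomethasone, with medians of -0.39 and -0.40. Among all named genes 38.4% fell and 34.1% rose in DMSO, and 37.5% fell and 35.7% rose in beclomethasone. The share of falls in groups 9 to 13 in DMSO was near the first of these. That share rests in part on 24 hpf DMSO replicate 3. Without that array hoxa13a (-0.81) and hoxc12a (-0.47) of this region also fell, and hoxd10a (0.33) did not pass. These genes were not well above background on that array. The shares of all named genes without it are not given here. Across the 45 genes, paralog number and log2 fold change had a Spearman rho of 0.46 in DMSO and 0.42 in beclomethasone (Pearson r 0.46 and 0.45). These describe genes measured on the same arrays, and the difference between regions of the clusters was not tested.

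**Figure D2:**
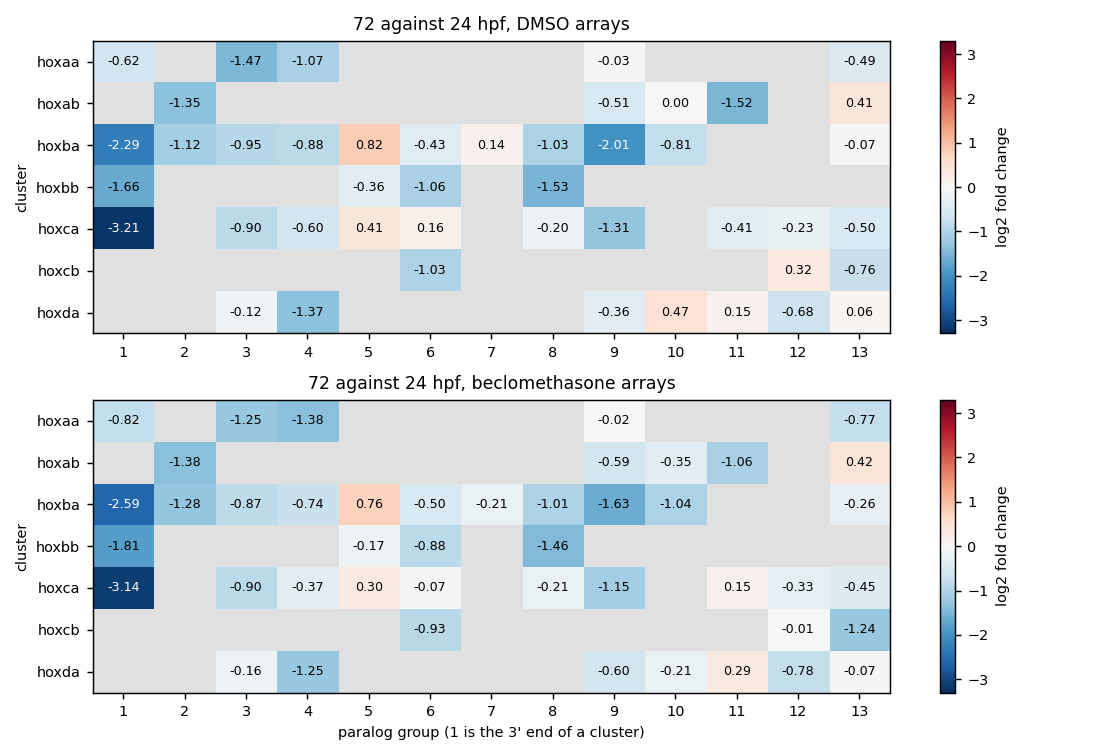
Log2 fold change between 72 and 24 hpf on a grid of 7 clusters by 13 paralog groups, in DMSO (upper) and beclomethasone (lower), with blue for lower at 72 hpf and grey for no tested gene. The columns of groups 1 to 4 hold values below 0 in every tested cell, down to -3.21 for hoxc1a.

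The group 1 genes pattern the hindbrain, and hoxc1a and hoxb1a showed the deepest falls of all Hox genes in both comparisons. On the scale used here, log2 intensity over the array's 75th percentile, hoxc1a read 1.19, 1.09 and 1.14 in DMSO at 24 hpf and -1.92, -2.01 and -2.29 at 72 hpf. In beclomethasone it read 1.18, 1.31 and 1.39 at 24 hpf and -1.66, -1.84 and -2.04 at 72 hpf. All 6 arrays of 72 hpf lay more than 2 units below all 6 of 24 hpf. The fall was 9.28-fold in DMSO (log2 -3.21 ± 0.12 SE, adjusted p = 1.71e-08, n = 3 per group) and 8.81-fold in beclomethasone, and the other hoxc1a probe gave -3.08 and -3.10.

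The gene hoxb1a gives the fourth hindbrain segment its identity. It read -2.20, -2.51 and -2.54 in DMSO at 24 hpf against -5.22, -4.84 and -4.05 at 72 hpf. In beclomethasone it read -2.08, -2.24 and -2.14 against -4.40, -4.47 and -5.37. The 72 hpf arrays spread widely in each treatment, yet none reached the 24 hpf arrays. The fall was 4.88-fold in DMSO (log2 -2.29 ± 0.32 SE, adjusted p = 0.00011) and 6.04-fold in beclomethasone (-2.59 ± 0.32, adjusted p = 4.97e-05).

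Its duplicate hoxb1b acts early in hindbrain patterning. It read 0.96, 0.78 and 0.81 in DMSO at 24 hpf and -0.89, -0.60 and -0.95 at 72 hpf, with no overlap between the ages. It fell in DMSO (log2 -1.66 ± 0.11 SE) and in beclomethasone (-1.81 ± 0.11), and its 3 probes all passed as lower in both. The remaining group 1 gene, hoxa1a, fell in DMSO (-0.62) and beclomethasone (-0.82), the smallest falls of the group. It was dim, and well above background on 2 of the 3 DMSO arrays of 24 hpf. Its sign in DMSO turned with quantile normalization. Its call in beclomethasone was lost with slide as a block (limma adjusted p = 0.11).

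Group 2 genes set the identity of the second pharyngeal arch. The gene hoxa2b read 0.47, 0.49 and 0.30 in DMSO at 24 hpf and -0.77, -1.01 and -1.02 at 72 hpf. In beclomethasone it read 0.55, 0.49 and 0.48 against -0.77, -0.97 and -0.88, so that ages did not overlap. It was 2.56-fold and 2.60-fold lower at 72 hpf, and hoxb2a 2.17-fold and 2.43-fold lower. Among groups 3 and 4, whose products act in the posterior hindbrain and the arches behind, hoxa3a fell (-1.47 ± 0.10 in DMSO and -1.25 ± 0.10 in beclomethasone), and so did hoxa4a (-1.07 ± 0.09 and -1.38 ± 0.09). The values of hoxd4a were -1.37 and -1.25, and those of hoxb4a -0.88 and -0.74. In contrast, hoxd3a read 1.36, 1.28 and 1.28 in DMSO at 24 hpf and 1.15, 1.24 and 1.15 at 72 hpf. Its change was -0.12 ± 0.07 (adjusted p = 0.16), but 1 of its 5 probes passed as lower in both comparisons, at -0.63 and -0.65.

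Groups 5 to 8 act from the hindbrain border into the trunk. Some copies of 1 ancestral gene had values of opposite sign here, a difference between copies that was not tested. The gene hoxb5a rose: it read 0.63, 0.68 and 0.69 in DMSO at 24 hpf and 1.71, 1.45 and 1.31 at 72 hpf. In beclomethasone it read 0.56, 0.56 and 0.69 against 1.54, 1.28 and 1.26. Every 72 hpf array lay above every 24 hpf array. The rise was 1.77-fold in DMSO (log2 0.82 ± 0.11 SE, adjusted p = 0.00011) and 1.69-fold in beclomethasone (0.76 ± 0.11, adjusted p = 0.00020), and all 3 of its probes passed as higher in both. Its duplicate hoxb5b read 1.61, 1.39 and 1.47 in DMSO at 24 hpf and 1.18, 1.31 and 0.91 at 72 hpf, a fall of 0.36 ± 0.13 (adjusted p = 0.035, or 0.26 when slide was a block). In beclomethasone the value of hoxb5b was -0.17 and did not pass, and its dimmest probe, not well above background on 1 of the 3 DMSO arrays of 24 hpf, gave 0.55 in DMSO, passing as higher.

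The gene hoxc6b fell in DMSO (-1.03 ± 0.12) and beclomethasone (-0.93 ± 0.12), while hoxc6a gave 0.16 and -0.07 and did not pass. The dimmer hoxc6a probe passed as higher in DMSO at 1.31, and at 0.91 without 24 hpf DMSO replicate 3; it was well above background on 2 of the 3 DMSO arrays of 24 hpf. These 2 pairs were those of 9 tested duplicate pairs with opposite signs in DMSO and at least 1 copy called. In the other pairs of this region both copies fell. The gene hoxb8b fell in both comparisons (-1.53 ± 0.13 and -1.46 ± 0.13), as did hoxb8a (-1.03 ± 0.09 and -1.01 ± 0.09). The gene hoxb6b gave -1.06 ± 0.17 and -0.88 ± 0.17, against -0.43 and -0.50 for hoxb6a.

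**Figure D3:**
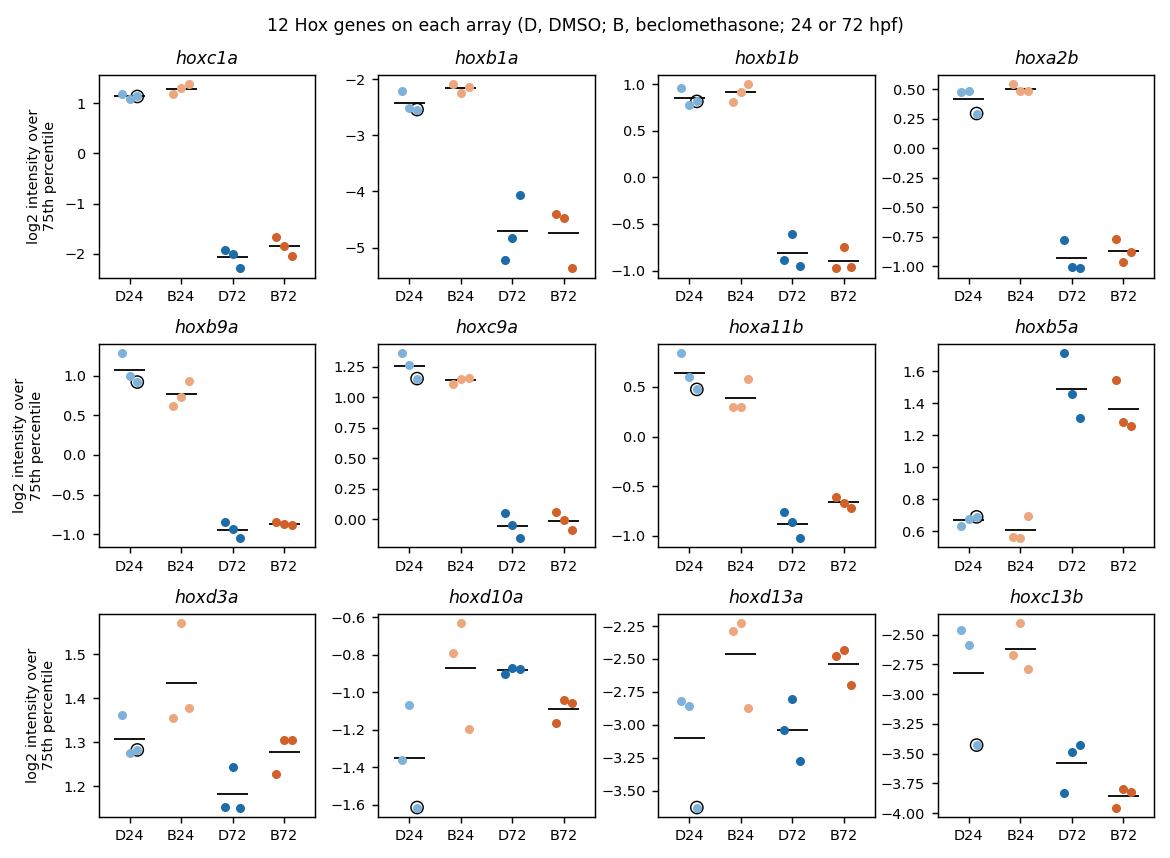
Log2 intensity over the array's 75th percentile for 12 Hox genes on each array, with a line at the mean of 3 arrays and a ring around 24 hpf DMSO replicate 3; each panel has its own vertical axis. The ages separate fully for hoxc1a, hoxb1a, hoxb1b, hoxa2b, hoxb9a, hoxc9a, hoxa11b and hoxb5a, and overlap for hoxd13a.

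In groups 9 to 13, which act in the posterior trunk, the fins and the tail, the largest falls in DMSO were in groups 9 to 11. The gene hoxb9a read 1.28, 0.9998 and 0.92 in DMSO at 24 hpf and -0.85, -0.93 and -1.05 at 72 hpf. In beclomethasone it read 0.62, 0.73 and 0.94 against -0.85, -0.87 and -0.89. It fell 4.03-fold in DMSO (log2 -2.01 ± 0.11 SE, adjusted p = 1.89e-07) and 3.10-fold in beclomethasone. All 3 of its probes passed as lower in both.

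The gene hoxc9a, whose mouse counterpart sets the identity of motor neurons at trunk levels, read 1.36, 1.27 and 1.15 in DMSO at 24 hpf and 0.05, -0.05 and -0.15 at 72 hpf. It fell in DMSO (-1.31 ± 0.08) and in beclomethasone (-1.15 ± 0.08). The gene hoxa11b, which is expressed in the pectoral fin bud, read 0.84, 0.60 and 0.48 at 24 hpf and -0.76, -0.86 and -1.02 at 72 hpf. It fell in DMSO (-1.52 ± 0.12) and in beclomethasone (-1.06 ± 0.12). The ages did not overlap for either gene. The gene hoxb10a fell likewise (-0.81 ± 0.07 and -1.04 ± 0.07).

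The most 5′ genes moved less evenly. Of the 6 genes of group 13, which act at the tail end of the axis and in the distal fin, hoxc13a and hoxc13b fell in both comparisons and hoxa13a in beclomethasone. The gene hoxc13b read -2.46, -2.58 and -3.43 in DMSO at 24 hpf and -3.83, -3.49 and -3.43 at 72 hpf, so that the replicate with raised background overlapped the older arrays. Its change was -0.76 ± 0.23 (adjusted p = 0.016), and -1.06 without that replicate, against -1.24 ± 0.23 in beclomethasone. At their brightest probes hoxa13b, hoxb13a and hoxd13a did not pass in either comparison. In DMSO a dimmer hoxd13a probe passed as lower (-1.16, adjusted p = 0.0092) and a dimmer hoxb13a probe as higher (0.98, adjusted p = 0.021), while the dimmer hoxc13a probe gave -0.01. With slide as a block hoxc13a lost both calls (adjusted p = 0.24 and 0.095), hoxc13b its call in DMSO (0.17) and hoxa13a its call in beclomethasone (0.18).

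In the hoxda cluster, whose 5′ genes act in the distal fin bud, hoxd9a, hoxd12a and hoxd4a fell in both comparisons. With slide as a block hoxd4a kept both calls, and hoxd9a (adjusted p = 0.43 and 0.12) and hoxd12a (0.065 and 0.11) lost both. Under this block a dimmer hoxd9a probe passed in both comparisons (limma adjusted p = 0.047 and 0.027). So did a dimmer hoxd12a probe (0.0041 and 0.0046) and a further one (0.011 and 0.0026). Another dimmer probe of each gene passed in neither. The gene hoxd10a read -1.36, -1.07 and -1.62 in DMSO at 24 hpf and -0.90, -0.87 and -0.88 at 72 hpf, a rise of 0.47 ± 0.16 (adjusted p = 0.026). That call rests on 24 hpf DMSO replicate 3: without it the value was 0.33 (adjusted p = 0.074). With slide as a block the value was 0.58 and did not pass (limma adjusted p = 0.20). In beclomethasone hoxd10a gave -0.21 and did not pass.

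Without 24 hpf DMSO replicate 3, 31 Hox genes fell and 2 rose in DMSO, where the shares of all named genes are not given here. The median Hox change was then -0.67, against -0.01 over all probes. The genes hoxa13a (-0.81) and hoxc12a (-0.47) joined the falls and hoxc5a (0.61) replaced hoxd10a among the rises. No slide held both groups of either age comparison, so that slide and age are largely mixed. Slide 2 alone held 72 hpf DMSO replicates 1 and 2 beside 24 hpf beclomethasone replicates 2 and 3. On it the median Hox difference was -0.66, and 36 of 45 genes were below 0, against 50.4% of all named genes. There hoxc1a gave -3.31, hoxb1a -2.84 and hoxb5a 0.96. With slide as a block in the fit, 22 genes fell and 1 rose in DMSO, and 20 fell and 2 rose in beclomethasone. The shares of all named genes called in that fit are not given here. Its median Hox change was -0.66 in DMSO and -0.51 in beclomethasone, against -0.13 and -0.03 over all probes. The block removed 8 calls in DMSO and 11 in beclomethasone, among the latter those of hoxa1a (-0.51), hoxb6a (-0.26), hoxb6b (-0.48) and hoxc4a (-0.25). In DMSO the blocked fit joins the ages through 24 hpf beclomethasone replicate 1, the only array of its group on slide 1. In beclomethasone it joins them through 72 hpf DMSO replicate 3, the only array of its group on slide 3. Why calls were lost was not tested. Arrays of the 2 ages did not overlap, with 72 hpf lower, for 29 genes in DMSO and 34 in beclomethasone, against 39.1% and 41.8% of all named genes. They did not overlap, with 72 hpf higher, for 3 and 2 genes, against 33.6% and 42.6%.

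The dimmer probes of a gene did not always follow its brightest one. Of 37 genes with several tested probes, 27 had all probes of 1 sign in DMSO. Where the brightest probe did not pass in DMSO, a dimmer one passed as higher for hoxd11a (1.09), hoxa10b (0.92), hoxb7a (0.87) and hoxc5a (0.83). The same held for hoxc12b (0.71), hoxc11a (0.36), hoxc6a and hoxb13a. A dimmer probe passed as lower for hoxa10b (-0.46), hoxd3a and hoxd13a. Taking the median over a gene's probes, 27 genes fell and 6 rose in DMSO. The shares of all named genes for that choice are not given here. Over all 110 probes, 65 fell and 13 rose in DMSO, where 36.1% and 30.3% of all probes did.

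Partners and upstream signals of Hox proteins were counted next, against 34.1% of all named genes rising and 38.4% falling in DMSO. Of 12 tested cofactor genes of the Pbx, Meis and Pknox families, homeodomain proteins that bind DNA together with Hox proteins, 5 rose and 6 fell in DMSO, with a median of -0.13. The cofactor pbx4, which acts with group 1 proteins in the zebrafish hindbrain, fell in DMSO and beclomethasone (log2 -1.61 ± 0.11 and -1.42 ± 0.11 SE), as did meis3 (-1.54 ± 0.07 and -1.59 ± 0.07). In the same embryos pbx3b rose by 2.08 ± 0.13 and 2.13 ± 0.13 and pbx1a by 1.22 ± 0.09 in DMSO. Of 19 genes that feed into Hox expression, namely Cdx factors, gdf11 and the retinoic acid pathway, 5 rose and 10 fell in DMSO, with a median of -0.48. The caudal-type gene cdx4, an activator of posterior Hox genes, fell in both (-3.36 ± 0.15 and -3.01 ± 0.15), and was well above background on 2 of 3 DMSO arrays of 24 hpf. The retinoic acid degrading enzyme gene cyp26c1 fell as well (-3.05 ± 0.10 and -2.56 ± 0.10), and so did gdf11, which advances posterior Hox expression in the mouse (-2.14 and -2.02). The Cdx gene cdx1b instead rose in both, by 3.85 ± 0.85 and 3.52 ± 0.85. It was well above background on 0 of 3 DMSO arrays of 24 hpf and on all 3 of 72 hpf.

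Marker lists of tissues that hold Hox transcripts, and of neurons in general, changed over the same interval in both directions, and their part in the Hox falls was not tested. The counts stand against 38.4% of all named genes falling and 34.1% rising in DMSO. Of 17 hindbrain genes, 10 fell and 3 rose in DMSO, with a median of -0.63. Of 13 tailbud genes 9 fell and 0 rose, with a median of -1.46, among them msgn1 (-3.85), a regulator of presomitic mesoderm. Of 19 fin bud genes 10 fell and 5 rose, with sall4 at -3.18 and the fin fold gene and2 at 2.73. Of 14 neural progenitor genes 12 fell and 1 rose, with a median of -1.47, among them neurog1 (-3.36) and sox3 (-3.26). All 10 mature neuron genes rose, with a median of 1.56, among them sypb (3.37). Of 21 spinal neuron genes 11 rose and 7 fell, with a median of 0.58 and values from -3.07 to 3.36, the last for vsx1. RNA of whole embryos does not show in which tissue a listed gene changed.

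The 5 nearest genes on each side of a cluster in the annotation and the non-Hox genes inside it gave 34 tested genes, of which 11 rose and 10 fell in DMSO, near the shares of all named genes (34.1% and 38.4%), with a median of -0.14. In beclomethasone 10 rose and 13 fell, with a median of 0.09. The RNA-binding protein gene igf2bp1, beside the hoxba cluster, fell in both (-2.60 ± 0.13 and -2.05 ± 0.13). The homeobox gene evx1, inside the hoxaa cluster, fell by 1.31 ± 0.06 in DMSO.

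The second comparison asks which Hox transcripts 3 h of beclomethasone changed. At the brightest probe 0 of 45 genes passed at 24 hpf and 0 at 72 hpf with limma, where 24.1% and 12.3% of all named genes passed. This fit did not use the pairing of samples by replicate number seen at 72 hpf (deviations from the group means correlated at 0.51 to 0.54). Its 72 hpf result therefore counts variation shared by paired samples as spread. At an unadjusted p below 0.05 there were 6 genes at 24 hpf, 4 of them higher, and 3 at 72 hpf, 2 of them higher. This compares with 38.3% and 26.2% of all named genes. The test of the difference between the 2 treatment effects also passed for 0 of 45 genes, against 8.58% of all named genes. The median size of the change, without its sign, was 0.14 at 24 hpf and 0.11 at 72 hpf, against 0.24 and 0.16 over all named genes. The median standard error was 0.12 for the Hox genes and 0.12 for all named genes.

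**Figure D4:**
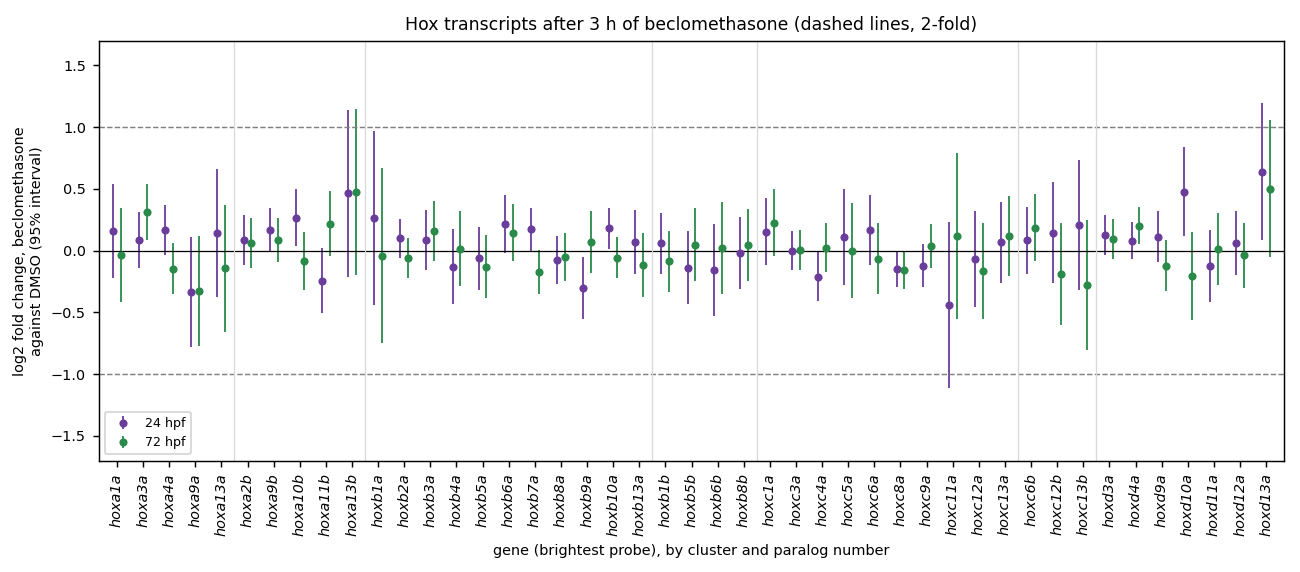
Log2 fold change of 45 Hox genes in beclomethasone against DMSO at 24 hpf (purple) and 72 hpf (green) with 95% intervals from the limma fit, 3 arrays per group, and dashed lines at a 2-fold change. The intervals of 42 genes at 24 hpf and 43 at 72 hpf lie inside the dashed lines.

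The intervals describe the brightest probe of each gene in the fit without slide and without the pairing of replicates. They do not cover differences between slides or between probes of a gene. For hoxa4a the interval at 24 hpf ran from -0.04 to 0.37, while a dimmer probe gave 0.86. The 95% interval of the change lay within 2-fold in either direction for 42 genes at 24 hpf and 43 at 72 hpf. It lay within 0.5 on the log2 scale for 31 and 34 genes. At 24 hpf the interval of hoxa13b ran from -0.21 to 1.14 and that of hoxc11a from -1.11 to 0.23. The hoxc11a value of -0.44 rests on 24 hpf DMSO replicate 3, which read -0.94 against -2.15 and -2.38, and was 0.00 without it. For hoxb1a, the gene with the widest interval, it ran from -0.44 to 0.97 at 24 hpf and from -0.75 to 0.67 at 72 hpf. For hoxb3a it ran from -0.16 to 0.33 and from -0.08 to 0.41, and for hoxc3a from -0.16 to 0.16 and from -0.16 to 0.17.

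The largest values at 24 hpf were those of hoxd13a and hoxd10a in the hoxda cluster, which were chosen after their values were seen. Between them in the cluster, hoxd11a gave -0.12 and hoxd12a 0.06, and hoxa13b of the hoxab cluster gave 0.47. The gene hoxd13a, needed with other group 13 genes for the fin rays, read -2.82, -2.86 and -3.63 in DMSO at 24 hpf and -2.28, -2.23 and -2.88 in beclomethasone. One beclomethasone array lay below 2 of the DMSO arrays, so that the groups overlapped. The difference was 0.64 with an interval from 0.09 to 1.19 (adjusted p = 0.094), and 0.50 at 72 hpf. The gene hoxd10a read -1.36, -1.07 and -1.62 in DMSO and -0.79, -0.63 and -1.20 in beclomethasone at 24 hpf, again with overlap. Its difference was 0.48 with an interval from 0.12 to 0.84 (adjusted p = 0.060), and -0.20 at 72 hpf. Single arrays decided these calls: without 24 hpf beclomethasone replicate 3, 4 genes passed as higher, among them hoxd13a (0.85) and hoxd10a (0.64), and 1 as lower. The share of all named genes called without that array is not given here, so the count cannot be set against it. Without DMSO replicate 2 hoxd10a passed at 0.62, and without DMSO replicate 3 the values were 0.38 and 0.34 and did not pass.

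Among the values below 0, hoxb9a read 1.28, 0.9998 and 0.92 in DMSO and 0.62, 0.73 and 0.94 in beclomethasone at 24 hpf, with overlap. Its difference was -0.30 with an interval from -0.55 to -0.05, and it did not pass (limma adjusted p = 0.081). The values of hoxc11a (-0.44) and hoxa9a (-0.33) were lower and did not pass either. At 72 hpf hoxb9a gave 0.07. Without 24 hpf DMSO replicate 3, 2 genes passed as lower, hoxb9a at -0.38 and hoxc12a at -0.31. In that fit 28.3% of all probes passed in either direction. Arrays of the groups did not overlap for 4 higher and 2 lower genes at 24 hpf, against 20.1% and 25.4% of all named genes. At 72 hpf this held for 7 higher and 6 lower genes, against 15.9% and 24% of all named genes. Within slide 3, the 3 beclomethasone arrays of 72 hpf lay above the only DMSO array on it for 24 genes and below it for 9, with a median of 0.11. Over all named genes these shares were 30.1% above and 41.1% below, with a median of -0.04. Within slide 1, the only beclomethasone array of 24 hpf gave a median of 0.04 against the 3 DMSO arrays, and -0.05 without DMSO replicate 3, where all named genes gave -0.08 and -0.06.

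Some dimmer probes did pass at 24 hpf. These were 11 of the 110 probes, from 10 genes, where 22% of all probes passed, and none was the brightest probe of its gene. They were described after their values were seen. In 10 of them beclomethasone was higher, and in 1, of hoxb8a, lower by 0.35. The rises ranged from 0.21 for hoxa2b to 0.98 for hoxa10b. In 7 of the 11 the lowest DMSO array was replicate 3, and 6 were not well above background on it. Without that array 16 of the 110 probes passed, where 28.3% of all probes did: 7 of these 11 and 9 others, among them a dimmer hoxa2b probe (0.77). With slide as a block 1 of the 11 passed, of hoxa4a. At 24 hpf that fit compares only beclomethasone replicate 1 with the DMSO arrays, which share slide 1 with no other beclomethasone array. At 72 hpf 0 of the 110 probes passed with limma, against 9.25% of all probes. The difference between the treatment effects passed for 1 of the 110 probes, of hoxa4a, against 7.77% of all probes, and for 4 without 24 hpf DMSO replicate 3, against 14.5%.

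**Figure D5:**
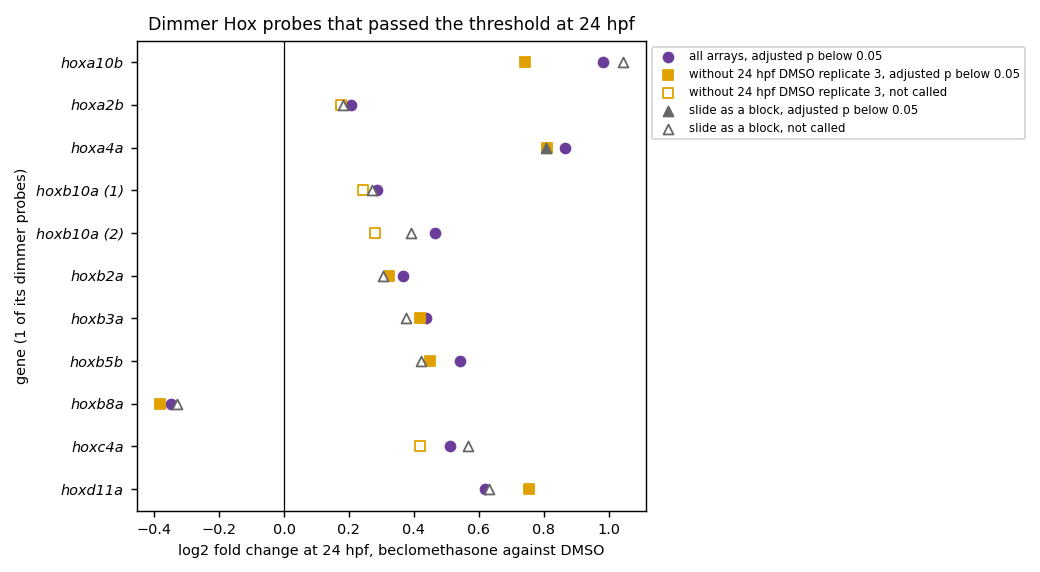
Log2 fold change at 24 hpf for the 11 dimmer Hox probes that passed, with all arrays (circles), without 24 hpf DMSO replicate 3 (squares) and with slide as a block (triangles). Filled symbols passed the threshold, and the hoxa10b probe moved from 0.98 to 0.74 without that replicate.

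The partners and inputs of Hox genes were also compared with treatment, where 24.1% of all named genes passed at 24 hpf and 12.3% at 72 hpf. Of the 12 cofactor genes 0 passed at 24 hpf, and 1 passed at 72 hpf, where meis1a fell by 0.32 ± 0.07 (adjusted p = 0.025). Of the 19 genes that feed into Hox expression, 1 rose at 24 hpf, the retinoic acid receptor gene rarga (0.75 ± 0.14). The retinoid X receptor gene rxraa fell (-0.83 ± 0.21), 1 of the 19. It was dim, with 24 hpf means of -4.24 in DMSO and -5.08 in beclomethasone. On 2 of the 3 DMSO arrays of 24 hpf it was well above background, so that the array with the raised floor enters its value. At 72 hpf 2 of the 19 rose and 1 fell, where 12.3% of all named genes passed in either direction. The rises were those of the retinoic acid degrading enzyme genes cyp26b1 (0.49 ± 0.10) and cyp26c1 (0.48 ± 0.10). The fall was that of aldh1a2, whose product makes retinoic acid (-0.37 ± 0.08). At 24 hpf these genes gave 0.25, -0.0015 and 0.07 and did not pass.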

How the data were processed

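Total RNA of each sample was hybridised to 1 single-colour Agilent array. The deposited scanner files hold spot intensity values that the authors made with Agilent Feature Extraction 10.7.1.1 (background-subtracted but unscaled across arrays, per the file headers). A second deposited file gives log2 values whose background correction and normalization are not stated in the sources used here. All 12 of its columns matched best (r 0.988 to 0.997 across probes) the array of the same stage and replicate but the other treatment, against 0.658 to 0.827 for their own label, so it served only as an alternative.

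Here log2 of the processed intensity was taken, minus each array's 75th percentile. Outlier spots were dropped and spots of a probe averaged. The fit used limma 3.58.1 under R 4.3.3 (4 group means, 12 arrays, 8 residual degrees of freedom, eBayes). On simulated data the fit recovered changes that were large against their standard error, but it missed some changes at noisy probes, short of the share first set as the pass mark; that mark was replaced after the result. A probe that did not pass may therefore still have changed. P-values were adjusted by Benjamini-Hochberg over all 36056 tested probes, with a threshold of 0.05. Intervals are 95% intervals of the moderated fit. The members and gene lists were chosen with earlier results of these data known. The genes named are the 4 largest falls and rises per age comparison and region of the clusters (groups 1 to 4, 5 to 8 and 9 to 13), up to 4 per other list, and duplicates that differ; others were chosen after their values were seen. Replicate numbers paired the samples at 72 hpf (deviations from the group means correlated at 0.51 to 0.54) but not at 24 hpf (-0.09 to 0.07). The main fit and its intervals did not use this pairing. Alternatives covered background correction, scaling, filter, probe choice, slide, replicate block, left-out arrays and the deposited table. The files lacked the mean signal, so normexp used median signals. The precision is limited by 3 arrays per group. Probe sequences were not used here.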

Additional observations from a re-analysis of the deposited data

Results flagged for a closer look

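A dimmer probe of hoxa4a differed between the ages in its treatment effect. It rose in beclomethasone by 0.86 at 24 hpf and gave 0.13 at 72 hpf, a difference of -0.73 (log2, limma adjusted p = 0.023 for the difference itself). It was the 1 probe of 110 Hox probes to pass that test, which 7.77% of all probes passed. Without 24 hpf DMSO replicate 3, 4 Hox probes passed, of hoxa2b, hoxa4a, hoxc6a and hoxd11a, against 14.5% of all probes. The hoxa4a value was then -0.68 (adjusted p = 0.025), and it did not pass with slide as a block (adjusted p = 0.26). That block leaves 1 beclomethasone array at 24 hpf and 1 DMSO array at 72 hpf to compare within a slide. The brightest hoxa4a probe gave 0.17 at 24 hpf and -0.14 at 72 hpf.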

How the results depend on the processing

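Counts below that stand without a share of all probes cannot be read as more or fewer than over all probes. Leaving out 1 array gave 26 to 31 falls and 1 to 3 rises between the ages in DMSO, and 27 to 33 falls and 1 to 2 rises in beclomethasone. For treatment it gave 0 to 2 lower and 0 to 4 higher at 24 hpf, 0 lower and 0 to 1 higher at 72 hpf, and 0 to 1 lower and 0 higher for the difference. The highest count at 24 hpf came without beclomethasone replicate 3, when hoxd13a (0.85) and hoxd10a (0.64) were among those that passed. The replicate block gave 3 higher genes at 24 hpf, where the numbers did not pair the samples, and 2 rises in beclomethasone between the ages, and moved no other count by over 1.5 times. Slide as a block gave 20 falls and 2 rises in beclomethasone and 1 rise in DMSO. Rises in DMSO numbered 1 with median centring, quantile normalization and the deposited table in either form, and 6 with the median over probes. Rises in beclomethasone numbered 2 with normexp, the median over probes and only the groups compared. Quantile normalization called 30.2% of all probes as rises in DMSO, and normexp 29.9% as rises in beclomethasone. At 24 hpf normexp gave 4 lower and 3 higher genes, where it called 27.7% and 11.4% of all probes. Median centring gave 1 lower there, where it called 15.5% of all probes as lower. Probes well above background everywhere gave 1 lower and 1 higher at 24 hpf, and the median over probes 1 higher. The deposited values gave 1 lower as labelled and 1 higher with their columns joined to the matching arrays. At 72 hpf the strict filter gave 2 higher, and only the groups compared 1 lower and 1 higher. The difference gave 2 lower and 1 higher with normexp and 1 lower with the strict filter. Of all probes, normexp called 7.95% lower and 16.3% higher for the difference. The sign turned for hoxa1a in DMSO with quantile normalization (0.38), and with the deposited table as labelled for hoxb5b (0.0052) and hoxd10a (-0.36) in DMSO, hoxb7a in beclomethasone (0.10), and hoxd10a (-0.47) and hoxd13a (-0.60) at 24 hpf. The cause was not tested. Median centring moved the median of all probes between the ages in DMSO from -0.08 to -0.41 and normexp to -0.30. The Hox median stayed below it, by 0.53, 0.53 and 0.35. Median centring called 22.2% of all probes as rises and 47.4% as falls; normexp called 26.1% and 52.8%. No slide held both groups of an age comparison, so that values within a slide were not run for those pairs of groups.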
